A study of Homo sapiens with 3 samples.

Results

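The ISWI chromatin remodelling genes are 10 genes that encode ATPases of the ISWI family and the main subunits that pair with them: SMARCA1, SMARCA5, BAZ1A, BAZ1B, BAZ2A, BAZ2B, BPTF, CECR2, RSF1 and CHRAC1. They are 10 of the 19775 genes named on the array and were read by 33 of its 54613 probe sets. A probe set was taken where the platform annotation maps it to exactly 1 of these symbols, with no filter on level. The genes were chosen by the values of SMARCA1, which was higher than the control with both hairpins against UHRF1. The differences between hairpins and control are therefore given as a description, with no test on any member.

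RNA came from HCT116, a human colorectal carcinoma cell line, on 3 single-colour Affymetrix arrays. Cells had been infected with lentivirus carrying UHRF1 shRNA-2 (hairpin 2, 1 array), UHRF1 shRNA-5 (hairpin 5, 1 array) or a scrambled shRNA (the control, 1 array). All of them, the control included, then spent 6 days under puromycin. With 1 array each, what belongs to a hairpin, to its culture or to its array cannot be told apart.

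ISWI ATPases use the energy of ATP to slide nucleosomes along DNA and to set regular spacing between them. The ATPases SMARCA1 (SNF2L) and SMARCA5 (SNF2H) act with a large partner that directs them: BPTF in the NURF complex, CECR2 in CERF, BAZ1A in ACF and CHRAC, BAZ1B in WICH, BAZ2A in NoRC and RSF1 in RSF. SMARCA5 is the widely used ATPase of dividing cells, while SMARCA1 is best known from neural tissue and as the ATPase of human NURF. UHRF1 binds hemimethylated CpG sites and the unmodified tail of histone H3 and brings in the maintenance DNA methyltransferase. The design asked which transcripts depend on UHRF1.

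UHRF1 itself read 6.20 with hairpin 2 and 6.67 with hairpin 5, against 8.54 on the control array (log2 RMA values), a mean difference of −2.11 ± 0.33 (SD, n = 2 hairpins). The array medians were 2.977, 3.044 and 3.002 for hairpin 2, hairpin 5 and the control, so a probe set near 3 sits in the bulk of its array and may hold little more than background. Epithelial markers fit the labelled cell type: KRT18 read 12.15, 12.48 and 12.26 and EPCAM 10.13, 9.93 and 10.23 with hairpin 2, hairpin 5 and the control, although VIL1 and LGALS4 lay near or under the array medians. The 5 leukocyte markers analysed stayed between 2.51 and 3.80 on all arrays. The hairpin 2 array stands apart in its interferon-stimulated genes: 11 of the 14 analysed were at least 1.5-fold above the control with hairpin 2 and 3 with hairpin 5, and their summed level was 13.97, 10.66 and 10.42 (log2) on the hairpin 2, hairpin 5 and control arrays. The part of this in the values below was not tested. Limma, fitted over all 54613 probe sets with 2 hairpin arrays against 1 control, called 0 at an adjusted p of 0.05 (0%), with 1595 at an unadjusted p under 0.05, so nothing below rests on a test.

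Because UHRF1 acts at CpG sites, the 250 bases upstream of the annotated start are shown, with each CpG in capitals, for the 3 members that had a probe set near or above 1.5-fold higher with both hairpins (SMARCA1, BAZ1B and CECR2) and for SMARCA5, the paralog of SMARCA1. The sequences are from RefSeq, build GRCh38.p14, written 5′ to 3′ on the strand of the gene. SMARCA1 lies at chrX:129523491-129523740 (minus strand), BAZ1B at chr7:73522294-73522543 (minus strand), CECR2 at chr22:17359699-17359948 (plus strand) and SMARCA5 at chr4:143513452-143513701 (plus strand).
SMARCA1: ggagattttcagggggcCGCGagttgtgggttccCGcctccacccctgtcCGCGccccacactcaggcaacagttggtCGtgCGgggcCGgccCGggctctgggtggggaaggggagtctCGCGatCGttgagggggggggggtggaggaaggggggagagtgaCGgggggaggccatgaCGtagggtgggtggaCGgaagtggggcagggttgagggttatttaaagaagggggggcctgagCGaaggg
BAZ1B: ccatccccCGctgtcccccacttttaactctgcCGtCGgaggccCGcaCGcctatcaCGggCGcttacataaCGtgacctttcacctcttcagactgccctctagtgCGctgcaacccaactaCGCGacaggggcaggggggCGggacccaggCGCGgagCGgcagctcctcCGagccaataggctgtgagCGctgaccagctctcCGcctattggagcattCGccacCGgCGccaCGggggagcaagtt
CECR2: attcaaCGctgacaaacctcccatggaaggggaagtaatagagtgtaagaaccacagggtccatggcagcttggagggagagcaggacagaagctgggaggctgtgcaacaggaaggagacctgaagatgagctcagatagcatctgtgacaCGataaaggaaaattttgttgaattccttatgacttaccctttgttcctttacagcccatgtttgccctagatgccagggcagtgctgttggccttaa
SMARCA5: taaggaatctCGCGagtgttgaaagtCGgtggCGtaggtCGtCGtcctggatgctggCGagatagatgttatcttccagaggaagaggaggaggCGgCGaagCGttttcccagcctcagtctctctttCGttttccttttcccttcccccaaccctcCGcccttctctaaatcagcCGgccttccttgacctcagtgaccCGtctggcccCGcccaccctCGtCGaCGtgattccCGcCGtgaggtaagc
SMARCA1 holds 16 CpG sites in this window, BAZ1B 22, SMARCA5 20 and CECR2 2. Over 35116 windows of the same length in the RefSeq table the median was 11 CpG sites, with quartiles of 3 and 23. CECR2 thus lies below the lower quartile, and the others between the median and the upper quartile. Methylation was not measured on these arrays.

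Since interferon-stimulated genes marked the hairpin 2 array, the windows were also searched on both strands for a pair of GAAA strings with 2 bases between them, the core of the element bound by interferon-activated factors. It occurs in 3.02% of all windows and in 2 of the 9 windows of the 7 members listed in the table. SMARCA5 holds it as TTTCGTTTTC, 115 bases before the start and overlapping a CpG, and RSF1 (window at chr11:77820723-77820972, minus strand) holds it as GAAAGTGAAA, 210 bases before the start. SMARCA1 has no match in its window. A match is a string of letters only and says nothing of binding.

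SMARCA1, an ISWI ATPase, was the 1 member at least 2-fold higher with both hairpins, and this rested on 1 of its 4 probe sets. Over all genes 0.0607% were so on their brightest probe set and 0.167% were 2-fold lower, and nothing is read from this, since SMARCA1 was chosen for it. Probe set 203874_s_at read 5.98 with hairpin 2 and 5.77 with hairpin 5, against 4.76 on the control array. Against the control this is 2.33-fold with hairpin 2 and 2.03-fold with hairpin 5, a mean difference of 1.12 ± 0.14 (SD, n = 2 hairpins). Both hairpin arrays lay above the control here, as the choice of the gene requires.

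The probe set of SMARCA1 next in brightness did not show this. Probe set 203875_at, annotated with the same RefSeq transcript, read 5.88 with hairpin 2 and 5.07 with hairpin 5, against 5.23 on the control array. Hairpin 2 was 0.65 higher than the control and hairpin 5 differed by −0.16, so the control lay between the hairpins. On the control array this probe set read higher than 203874_s_at, and on both hairpin arrays lower.

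The dimmer SMARCA1 probe sets sat close to the bulk of the arrays. Probe set 215294_s_at read 3.33 and 3.25 with hairpins 2 and 5, against 3.07 on the control array, higher by 0.26 and 0.18. Probe set 203873_at read 2.41 and 2.62, against 2.49, and lay at percentile 19.6 of mean level. Of the 4 probe sets, 2 were thus higher with both hairpins and 2 had the hairpins on opposite sides of the control. Averaged over all 4, SMARCA1 was 0.51 higher with hairpin 2 and 0.29 higher with hairpin 5.

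Of the 5 neuronal markers analysed, 1 was at least 1.5-fold higher with both hairpins, beside 0.460% of all genes. This was TUBB3, a beta-tubulin, which read 10.21 with hairpin 2 and 10.06 with hairpin 5, against 9.29 on the control array. The others, SYP, SNAP25, RBFOX3 and MAP2, read 2.85 to 3.86 on all arrays, near the array medians. The summed level of the 5, nearly all of it TUBB3, was 10.26, 10.12 and 9.38 (log2) on the hairpin 2, hairpin 5 and control arrays. Its part in the SMARCA1 values was not tested.

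**Figure D1:**
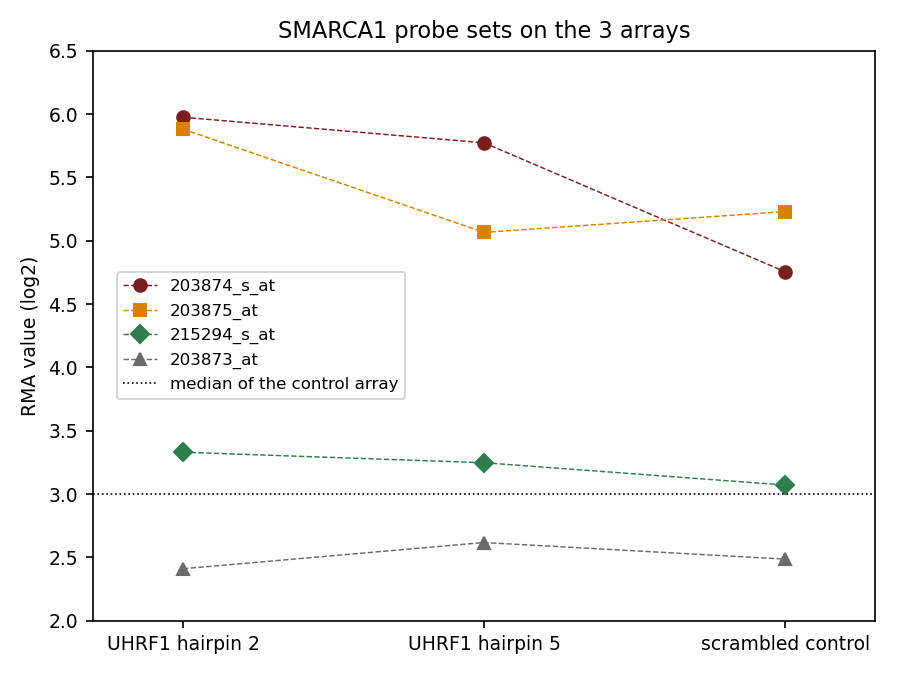
Log2 RMA value (vertical axis) of the 4 SMARCA1 probe sets on the hairpin 2, hairpin 5 and control arrays, 1 point per array, with dashed lines only to link points of a probe set and a dotted line at the control array's median of 3.002. Probe set 203874_s_at is lowest on the control array (4.76), while 203875_at is lowest with hairpin 5 (5.07).

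The paralog SMARCA5, the ATPase shared by ACF, CHRAC, WICH, NoRC and RSF, showed no common difference. Its probe set with the highest mean, 202303_x_at, read 7.32 with hairpin 2 and 6.84 with hairpin 5, against 6.90 on the control array. Probe set 213859_x_at had the same shape at 4.54 and 4.02, against 4.24, with hairpin 2 above the control and hairpin 5 below it. The suffix _x_at marks probes that may match other transcripts as well. Probe set 213251_at, without that mark, read 6.88 and 6.96, against 6.91, all within 0.08 of each other. All 3 probe sets of SMARCA5 thus had the control between the hairpins.

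BPTF, the large subunit of NURF, which reads methylated histone H3 through its PHD finger, was higher with both hairpins on 2 of its 5 probe sets and lower on 2. Its brightest, 207186_s_at, read 8.30 with hairpin 2 and 8.03 with hairpin 5, against 7.76 on the control array, a mean difference of 0.40 ± 0.19 (SD, n = 2 hairpins). Probe set 232909_s_at read 6.72 and 6.74, against 6.45. Both put the hairpin arrays above the control by less than 1.5-fold.
Probe set 209271_at read 6.98 and 6.69, against 6.78, with the control between the hairpins. The dim probe set 231953_at went the other way at 2.81 and 2.58, against 3.27, and hairpin 5 there was 1.62-fold lower. Probe set 230056_at lay at percentile 16.0 of mean level and differed by 0.00 and −0.12. The mean over all 5 probe sets of BPTF was 0.11 with hairpin 2 and −0.07 with hairpin 5.

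CECR2, the bromodomain partner of SMARCA1 in CERF, was higher with both hairpins on its brightest probe set. Probe set 239752_at read 3.72 with hairpin 2 and 3.80 with hairpin 5, against 3.16 on the control array, a mean difference of 0.60 ± 0.06 (SD, n = 2 hairpins). The hairpin 5 difference of 0.64 passed 1.5-fold and the hairpin 2 difference of 0.56 did not. The other CECR2 probe sets were closer to the control: 223729_at differed by 0.06 and 0.24, and 233695_s_at by −0.10 and 0.15. All 3 had means between 2.89 and 3.56, near the bulk of the arrays, so how far this reflects CECR2 transcript is uncertain.

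BAZ1A, the large subunit of ACF and CHRAC, was the 1 member whose probe sets were all lower with both hairpins. Probe set 217985_s_at read 6.90 with hairpin 2 and 6.86 with hairpin 5, against 7.28 on the control array. Probe set 217986_s_at read 5.46 and 5.63, against 5.75. The brighter one differed by −0.40 ± 0.03 (SD, n = 2 hairpins), under 1.5-fold. CHRAC1, a small histone-fold subunit that joins BAZ1A and SMARCA5 in CHRAC, read 5.76 with hairpin 2 and 5.42 with hairpin 5, against 5.47 on the control array, on its single probe set 231764_at. Hairpin 2 was 0.29 higher and hairpin 5 differed by −0.05, so CHRAC1 did not follow BAZ1A.

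BAZ1B, the WICH subunit also known as the Williams syndrome transcription factor, differed between its probe sets. The brightest, 208445_s_at, was level on all arrays at 7.85 with hairpin 2 and 7.74 with hairpin 5, against 7.78 on the control array. Probe set 213336_at read 5.295 and 5.504, against 4.686, 1.53 times the control with hairpin 2 and 1.76 times with hairpin 5. This is the only member probe set besides 203874_s_at of SMARCA1 that passed 1.5-fold with both hairpins. The remaining probe sets of BAZ1B, 211313_s_at and 229658_at, stayed within 0.16 of the control and under 3 on every array.

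BAZ2A, the NoRC subunit that silences ribosomal RNA genes, and its relative BAZ2B had no common direction. BAZ2A probe set 201354_s_at read 6.09 with hairpin 2 and 6.43 with hairpin 5, against 6.22 on the control array. Probe set 201355_s_at read 4.11 and 4.44, against 4.47, and 201353_s_at read 4.08 and 4.34, against 4.15. On these 3 probe sets hairpin 2 was the lowest array each time, and hairpin 5 exceeded hairpin 2 by 0.26 to 0.34. Probe set 215437_x_at, at percentile 37.8 of mean level, differed by 0.03 and 0.10. BAZ2B, on its single probe set 203080_s_at, read 3.96 and 4.19, against 4.06, with hairpin 2 lowest and hairpin 5 highest.

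RSF1, the histone-binding partner of SMARCA5 in RSF, was read by 6 probe sets, of which 1 was higher with both hairpins. That one, 222540_s_at, is the brightest and read 4.97 with hairpin 2 and 4.70 with hairpin 5, against 4.63 on the control array. Probe sets 235381_at (3.30 and 2.65, against 2.74) and 218166_s_at (3.17 and 2.66, against 2.72) were higher with hairpin 2 and slightly lower with hairpin 5. The remaining 3 probe sets of RSF1 were within 0.13 of the control on both arrays. Their means lay between 2.84 and 3.38, near the bulk of the arrays.

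**Figure D2:**
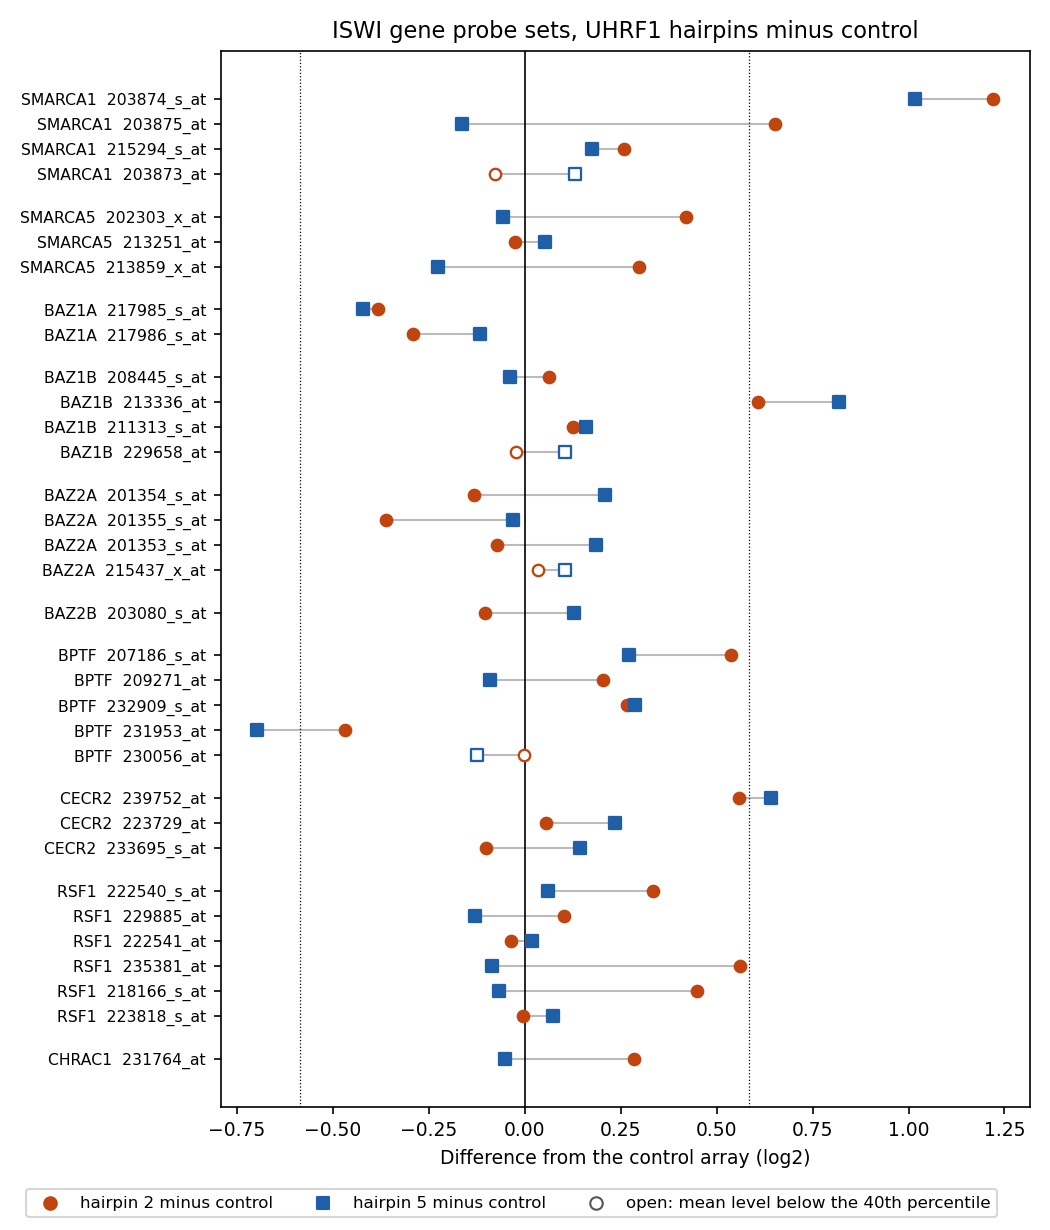
Difference from the control array (log2, horizontal axis) of all 33 probe sets of the 10 ISWI genes, with hairpin 2 as circles and hairpin 5 as squares, 1 array each; dotted lines mark 1.5-fold and open symbols a mean level below the 40th percentile of probe sets. Both symbols lie past 1.5-fold on the same side for 203874_s_at of SMARCA1 and 213336_at of BAZ1B.

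Over all 33 probe sets, 10 were higher with both hairpins, 5 lower and 18 mixed. Over the whole array 31.7% of probe sets were higher with both and 30.8% lower. The median member difference was 0.06 with hairpin 2 and 0.06 with hairpin 5, beside −0.01 and 0.01 over all probe sets. At 1.5-fold with both hairpins 2 of the 33 were higher, beside 0.410% of all probe sets, and 0 were lower, beside 0.699%. At 2-fold 1 was higher, beside 0.0586%, and 0 lower, beside 0.103%. Since the genes were assembled around SMARCA1 and on this contrast, nothing is read from these shares. The mean level of 29 of the 33 reached the 40th percentile of all probe sets (log2 2.79).

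**Figure D3:**
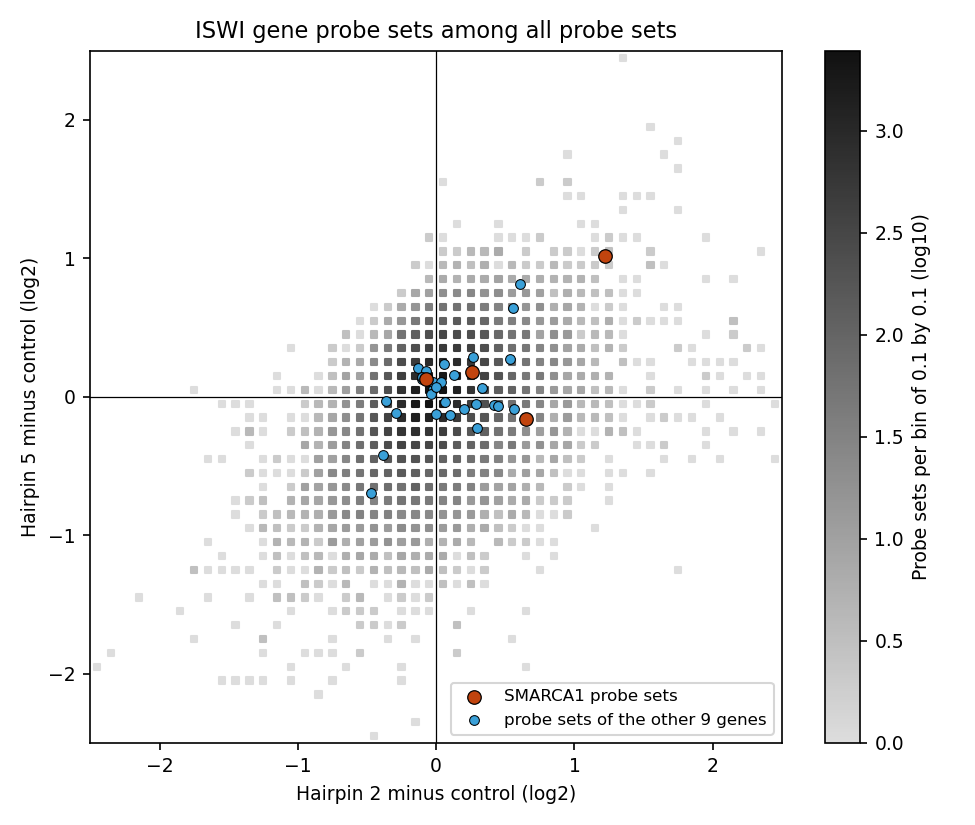
Hairpin 2 minus control (horizontal axis) against hairpin 5 minus control (vertical axis), both log2. Grey squares count probe sets in bins and coloured points are the ISWI probe sets. Probe sets beyond the axis limits are not drawn, among them that of IFIT1 at 6.79 and 2.19. Both axes share 1 control array, so a slant along the diagonal comes with the design; 203874_s_at of SMARCA1 lies at 1.22 and 1.02, and most other members lie inside the dense centre.

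By gene, with the probe set of highest mean standing for each, 4 of the 10 were higher with both hairpins (SMARCA1, BPTF, CECR2 and RSF1), 1 was lower (BAZ1A) and 5 were mixed. Over all 19775 genes 30.5% were higher with both and 31.0% lower. After cyclic loess scaling SMARCA5 (0.36 and 0.04), BAZ1B (0.02 and 0.06) and CHRAC1 (0.23 and 0.01) were also higher with both, so that 7 were higher, 1 lower and 2 mixed, beside 31.5% of all genes higher and 32.5% lower. When probe sets of a gene were averaged, the members higher with both were SMARCA1, BAZ1B and CECR2 (31.9% of all genes were). BAZ1A was again the 1 lower (30.1% were). For SMARCA1 this average includes its brightest probe set and is no separate reading. On the brightest probe set SMARCA1 was the 1 member 1.5-fold higher with both (0.460% of genes were) and 0 were lower (1.00%), and with averaged probe sets 0 members were higher (0.283%) or lower (0.480%). Without probe sets that carry an _s_at or _x_at suffix, which may match several transcripts, SMARCA1 stood at 0.65 and −0.16, and BAZ1B took its place past 1.5-fold with both hairpins at 0.61 and 0.82. Taking the probe set brightest on the control array, a choice added after the values were seen, picks the same SMARCA1 probe set, 203875_at, and is no separate value for this gene. That choice also uses the control value that is then subtracted, which favours lower values of hairpin minus control. Over all genes 28.7% were then higher with both hairpins and 32.9% lower.

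**Figure D4:**
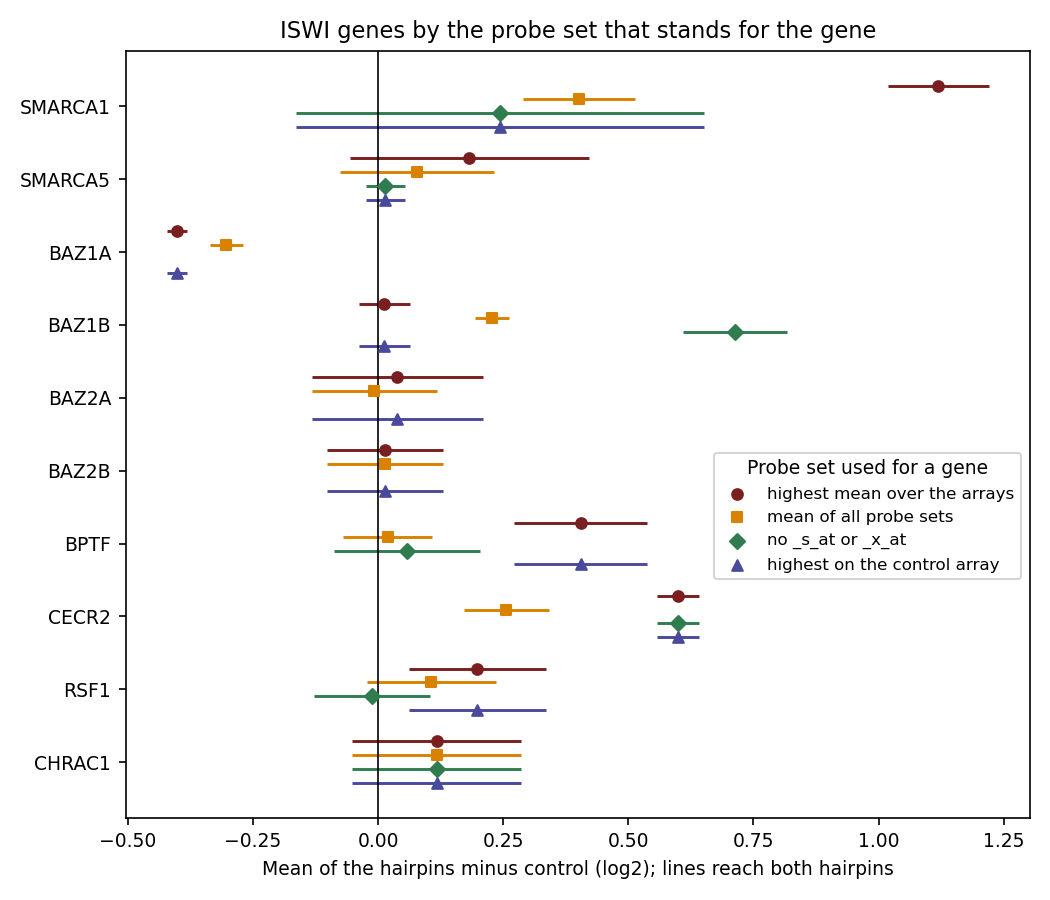
Mean of the 2 hairpins minus control (log2, horizontal axis) for each ISWI gene under 4 ways to choose its probe set; the lines reach from one hairpin to the other, and a gene has no mark where it has no probe set of that kind. SMARCA1 stands at 1.12 with the probe set of highest mean, at 0.40 as the average of its probe sets and at 0.24 in both other cases, which use the same probe set, while BAZ1A stays below 0 wherever it has a value.

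Probe sets of 1 gene also disagreed in other genes with a difference of this size. On the array, 5 genes had a brightest probe set at least 2-fold higher with both hairpins and a second one at or above the 40th percentile, SMARCA1 among them. In 2 of the 5 the second probe set was also higher with both hairpins, and in 3, SMARCA1 included, it was not. At 1.5-fold, 25 of 50 such genes had a second probe set higher with both (50.0%), beside 31.7% of all probe sets. Among genes lower with both, the second probe set was also lower in 12 of 19 at 2-fold (63.2%) and in 66 of 108 at 1.5-fold (61.1%), beside 30.8% of all probe sets.

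Set against each other, the hairpins differed by at least 1.5-fold on 2 of the 33 probe sets, both higher with hairpin 2: 203875_at of SMARCA1 (0.82 higher) and 235381_at of RSF1 (0.65 higher). Over all probe sets 4.82% were higher with hairpin 2 by this measure and 1.55% with hairpin 5, so the count of 2 is near the background. Among probe sets at or above the 40th percentile the shares were 7.96% and 2.40%. Hairpin 2 exceeded hairpin 5 by any amount on 16 of the 33, beside 46.0% of all probe sets.

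Genes outside the 10 that work with ISWI ATPases lay on both sides of the control. Of 11 such partners analysed 3 were higher with both hairpins and 5 lower, beside 30.5% and 31.0% of all genes. With both hairpins 0 reached 1.5-fold, beside 0.460% of all genes higher and 1.00% lower. RBBP7, a histone-binding subunit of NURF, read 8.59 with hairpin 2 and 8.53 with hairpin 5, against 8.49 on the control array. POLE3, the histone-fold partner of CHRAC1, read 6.53 and 6.64, against 6.49. DEK, a chromatin protein found with WICH, read 8.28 and 8.40, against 8.64, and DDX21, an RNA helicase found with it, 10.01 and 10.00, against 10.22. MYBBP1A differed by −0.20 and −0.31. RBBP4 and ERCC6 differed by −0.47 and −0.53 with hairpin 2, and each by −0.01 with hairpin 5. SF3B1 was 0.13 and 0.28 higher on its brightest probe set and −0.31 and −0.28 as the mean of its probe sets.

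In other remodelling families genes lay on both sides of the control. Of the 28 SWI/SNF genes 10 were higher with both hairpins and 10 lower, of the 18 CHD and NuRD genes 9 and 2, of the 22 genes of INO80, SRCAP and TIP60 8 and 4, and of the 12 other Snf2-type ATPases 3 and 7. Over all genes 30.5% were higher with both and 31.0% lower, and no difference between these families was tested. Median differences with hairpins 2 and 5 were 0.03 and −0.02 for the ISWI partners, 0.01 and −0.01 for SWI/SNF, 0.09 and 0.08 for CHD and NuRD, 0.08 and −0.07 for INO80, SRCAP and TIP60, and −0.02 and −0.14 for the other ATPases. For the 10 ISWI genes, which were assembled around SMARCA1, they were 0.31 and 0.10, or 0.18 and 0.05 with averaged probe sets, and over all genes 0.00 and 0.00 to 2 decimals. Across these and the ISWI partners, 0 of 91 genes were 1.5-fold higher with both hairpins (0.460% of all genes were) and 2 were lower (1.00%). SHPRH, a ubiquitin ligase with a Snf2-type ATPase domain, read 3.60 with hairpin 2 and 3.39 with hairpin 5, against 4.40 on the control array. ARID1B, a DNA-binding subunit of SWI/SNF, read 4.63 and 4.63, against 5.30, although the mean of its probe sets was −0.23 with either hairpin. Judged by the weaker hairpin, the genes furthest below the control in each family were ARID1B, GATAD2B (−0.18 and −0.40), YEATS4 (−0.28 and −0.61) and SHPRH. As the mean of its probe sets GATAD2B stood at −0.24 and −0.02. Those furthest above by the same rule were SMARCB1 (0.54 and 0.33), MTA2 (0.38 and 0.74), KAT5 (0.51 and 0.47) and ATRX (0.51 and 0.35). As the mean of probe sets SMARCB1 stood at 0.12 and 0.11, KAT5 at 0.42 and 0.42 and ATRX at 0.22 and 0.04. MTA2 has 1 probe set, which read 3.42 with hairpin 2 and 3.78 with hairpin 5, against 3.04 on the control array. That control value is near the array median. Limma called 0 probe sets over the whole array, so the 246 probe sets of these lists are described by their differences only.

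**Figure D5:**
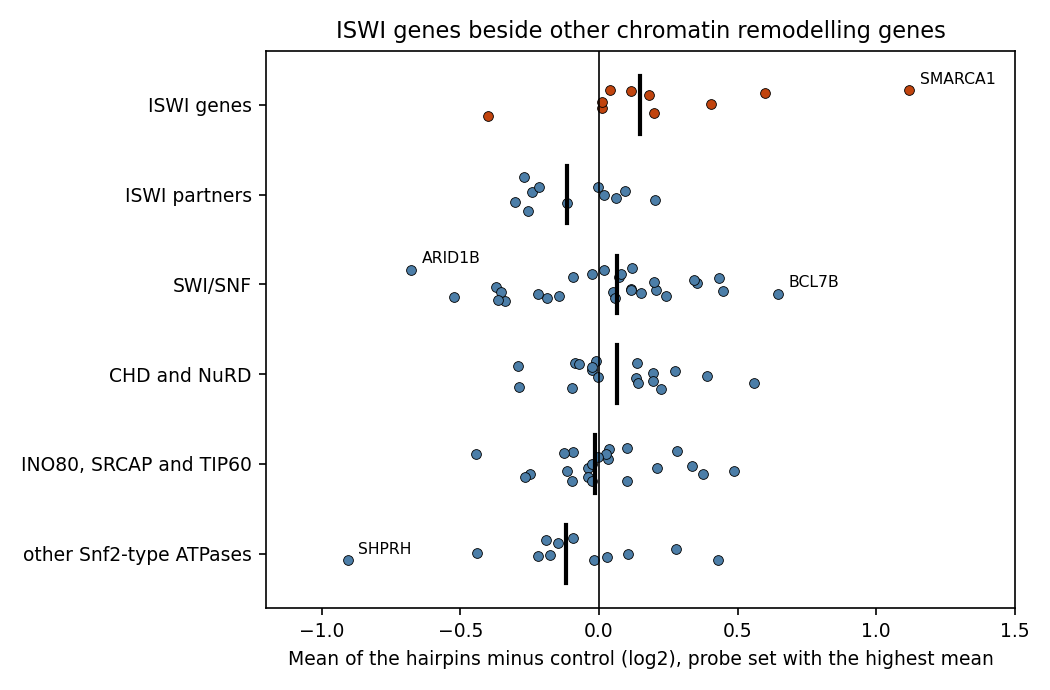
Mean of the 2 hairpins minus control (log2, horizontal axis), 1 point per gene with its probe set of highest mean, for the ISWI genes and 5 other lists of chromatin remodelling genes; black bars are medians and vertical jitter within a list carries no value. SMARCA1 (1.12) is the highest point and SHPRH (−0.91) the lowest.

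Across the 3 arrays, the genes nearest to SMARCA1 by the distance between their pairs of differences, among 14946 genes at or above the 40th percentile, were SUSD2 (distance 0.04), ATL3 (0.07), RNF43 (0.21), MYLK-AS1 (0.22), C12orf76 (0.23), SFT2D2 (0.27), RHOV (0.29) and CYB5B (0.31). SUSD2, a membrane protein, read 6.77 with hairpin 2 and 6.57 with hairpin 5, against 5.52 on the control array. ATL3, a GTPase that shapes the endoplasmic reticulum, read 7.58 and 7.35, against 6.40. RNF43, which removes Wnt receptors from the cell surface, read 6.47 and 6.52, against 5.46. MYLK-AS1 read 3.81 and 3.67, against 2.78. Its control value lies under the 40th percentile (2.79), so it passed the filter only through the hairpin arrays. As the mean of probe sets SUSD2 was 0.72 and 0.82 higher, ATL3 0.56 and 0.37 and C12orf76 0.31 and 0.22. By the same measure SFT2D2 was 0.82 and 0.43 higher and CYB5B 1.20 and 1.00. For RNF43, MYLK-AS1 and RHOV the mean of probe sets is the same value, so they have no such second value. This likeness is a description over 3 arrays that share 1 control.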

How the data were processed

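The deposited values are log2 intensities per probe set; the authors used Expression Console and RMA (Affymetrix), per the submitters' processing notes, with versions not given in the sources used here. That the scale is log2 was read from the range of values. The platform annotation names 1 gene for 41091 probe sets, several for 1801 and none for 11721; identifiers of 41037 matched RefSeq (GRCh38.p14), changing 0 symbols. Unless stated, a gene's value is that of its brightest probe set, by the mean of all arrays. Of these 3 arrays 2 carry a hairpin, and for SMARCA1 the choice rests on them. On the control array alone 203875_at (5.23) read higher than 203874_s_at (4.76), the probe set chosen.

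Limma 3.58.1 (R 4.3.3; lmFit, eBayes, Benjamini-Hochberg) compared 2 hairpin arrays with 1 control over all probe sets. With 1 residual degree of freedom (3.63 after moderation) its p-values measure only the spread between the hairpins, which stands in for that of the single control. The limma estimates of difference were checked on simulated data with the same spread on every array. That check does not cover p-values whose spread comes from 2 different hairpins. Folds of 1.5 and 2 are descriptions, not tests.

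Members and lists were chosen with earlier results of these data known. Also named were UHRF1, up to 3 genes per remodelling list and direction, ranked by the smaller hairpin difference, and the 8 genes nearest SMARCA1. Median levels of fibroblast, endothelial and neuronal markers were 2.77, 2.77 and 3.38 with hairpin 2, 2.97, 2.86 and 3.73 with hairpin 5, and 2.82, 2.78 and 3.37 on the control array, with COL1A1 at 6.39, 5.75 and 5.82 in that order. Alternatives were other choices of probe set, median centring, cyclic loess, a filter at the 40th percentile, other limma priors and leaving out a hairpin.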

Additional observations from a re-analysis of the deposited data

How the results depend on the processing

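The SMARCA1 difference of 1.12 became 0.40 with the mean of its probe sets, and 0.24 both without probe sets ending in _x_at or _s_at and with the probe set brightest on the control array, the last chosen after seeing the data and here the same probe set; it was 1.11 with median centring, where hairpin 5 stood at 0.98, and 1.12 with cyclic loess. Leaving out either hairpin gave 1.02 to 1.22, which only repeats the difference of the hairpin that is left. The count of members 1.5-fold higher with both hairpins, 1, became 0 with the mean of probe sets and 0 with the probe set brightest on the control array, stayed 1 without _x_at and _s_at probe sets but with BAZ1B in place of SMARCA1, and ran from 1 to 2 with a single hairpin, CECR2 being added with hairpin 5 alone (without hairpin 2). In the other remodelling lists the count lower, 2, became 1 with the mean of probe sets and 0 at 2-fold. That 1 was SHPRH, whose mean of probe sets is the same value, so this setting could not change it. The count lower ran from 3 to 4 with a single hairpin. The count higher, 0, became 1 (CHD7) without _x_at and _s_at probe sets and ran from 2 to 3 with a single hairpin. With a single hairpin fewer conditions have to be met. The other causes were not tested. For the other 9 members 30 values came from another probe set or scaling; 7 moved by more than the SD between hairpins, and 3 turned sign, BAZ2A (−0.01, mean of probe sets), BAZ2B (−0.01, cyclic loess) and RSF1 (−0.01, no _x_at or _s_at). Of 18 values with a single hairpin, 5 turned sign. Such a value repeats the difference of the hairpin that is left, so these 5 are the members counted as mixed. All values of the 9 members lay between −0.42 and 0.71. The count of members higher with both hairpins by any amount, 4, became 7 with cyclic loess, stayed 4 with median centring, and was 3 with the mean of probe sets, 3 with the probe set brightest on the control array and 2 of 7 without _x_at and _s_at. Limma called 0 probe sets under its alternatives too, with 881 (filtered), 1600 (intensity trend), 1537 (robust), 2037 (cyclic loess) and 533 (1 probe set a gene) at an unadjusted p under 0.05. With 1 array a group no test could be fitted, so limma was not run without a hairpin. No paired analysis was possible because the groups hold 2 arrays and 1. The arrays carry no detection calls, so values near log2 3 limit what can be said of the dim probe sets.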
